A study of Mus musculus with 11 samples.

Results

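A list of 40 genes of cell proliferation and DNA replication was read in whole testes of mice at postnatal day 5 (P5), in 4 genotypes and 11 RNA sequencing libraries. The list was chosen with earlier results of these data known. Its genes were taken by symbol: Mki67, Top2a, Ccna2, Ccnb1, Ccnb2, Ccne1, Ccne2, Cdk1, Cdk2, Cdc20, Cdc6, Cdc45, Cdt1, Gins1, Gins2, Mcm2 to Mcm7, Mcm10, Pcna, Rrm1, Rrm2, Tyms, Pola1, Prim1, Aurka, Aurkb, Plk1, Bub1, Bub1b, Birc5, Kif11, Kif20a, Tpx2, Cenpa, Cenpe and Cenpf. All 40 were found, each on 1 row, among 33188 genes and 1088 transposable element (TE) subfamilies, and all 40 were tested in every comparison. None of the 40 genes passed the test in any of the 9 comparisons made. The 95% intervals limit most differences in whole-testis RNA to less than 2-fold.

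The wild-type (WT) group held 2 libraries. Dnmt3C KO testes, with 3 libraries, lack DNMT3C, the DNA methyltransferase that methylates the promoters of young retrotransposons in fetal male germ cells, in every cell of the animal. Nrf1 cKO testes, with 3 libraries, carried Nrf1 fl/KO with Ddx4-Cre, which deletes the gene of the transcription factor NRF1 in germ cells before birth, while the somatic cells keep the floxed copy beside the KO one. Double knockout (dKO) testes, with 3 libraries, combined Nrf1 fl/KO, Ddx4-Cre and Dnmt3C KO/KO. All strains were kept on a C57Bl6/J background with littermates as controls where possible, and whether the controls carried Cre or a floxed allele is not given in the sources used here. The question put to these genes was whether the dividing cells of the P5 testis carried more or less of the cell cycle program when NRF1, DNMT3C or both were missing.

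Replication starts when CDC6 and CDT1 load the MCM2 to MCM7 helicase onto origins, and CDC45 with the GINS complex turns that helicase on. DNA polymerase alpha and its primase then start each strand, PCNA holds the polymerases on the DNA, and ribonucleotide reductase and thymidylate synthase supply nucleotides. Cyclin B with CDK1, the Aurora and Polo kinases, the BUB checkpoint proteins and the motors and centromere proteins then carry the cell through mitosis. In the P5 testis both Sertoli cells and spermatogonia divide, so a whole-testis library adds the cell cycle RNA of both. Ddx4-Cre deleted the floxed copy of Nrf1 only in the latter. In Nrf1 cKO and dKO testes the Sertoli cells kept that copy beside the KO one, so they too differed from WT.

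Most of these genes are known to be driven by a small set of promoter elements, so their promoters are shown first. The RefSeq table of mouse promoters (GRCm38.p6, 250 bases before to 50 after each start site) held 32 of the 40 genes. It was searched on both strands for the NRF1 words GCGCATGCG or GCGCACGCG, the E2F words TTTCCCGC or TTTGGCGC, the cell cycle homology region (CHR) TTTGAA, and the CCAAT box that NF-Y binds. No searched word contains another. The 140 bases ahead of the start site are printed for genes to which the comparisons below return (Bub1, Ccnb1, Cenpf, Mcm10), for the only gene with an NRF1 word (Cdt1), and for an E2F and a CHR example (Mcm6, Cdk1). Capitals mark the searched words. The Ccnb1 window was moved upstream, to end 55 bases ahead of the start site, because annotated exon sequence fills most of the nearer bases. It still holds 30 bases of annotated exon, among them its last marked CCAAT box. The Cdk1 window holds 26 such bases, among them its last marked CHR, and the Bub1 window holds 6.
Bub1, chr2:127831860-127831999, minus strand: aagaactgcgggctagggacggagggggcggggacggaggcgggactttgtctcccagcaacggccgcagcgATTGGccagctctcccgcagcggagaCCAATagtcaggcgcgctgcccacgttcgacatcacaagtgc
Ccnb1, chr13:100786541-100786680, minus strand: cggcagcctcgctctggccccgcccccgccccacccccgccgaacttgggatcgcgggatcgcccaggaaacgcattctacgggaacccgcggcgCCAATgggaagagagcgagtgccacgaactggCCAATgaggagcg
Cenpf, chr1:189688087-189688226, minus strand: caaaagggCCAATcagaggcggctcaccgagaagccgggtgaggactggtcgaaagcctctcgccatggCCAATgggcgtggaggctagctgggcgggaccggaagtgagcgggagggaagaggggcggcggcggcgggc
Mcm10, chr2:5012792-5012931, minus strand: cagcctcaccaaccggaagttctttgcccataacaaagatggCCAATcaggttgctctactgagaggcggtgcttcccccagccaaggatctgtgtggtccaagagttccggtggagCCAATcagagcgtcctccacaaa
Cdt1, chr8:122567875-122568014, plus strand: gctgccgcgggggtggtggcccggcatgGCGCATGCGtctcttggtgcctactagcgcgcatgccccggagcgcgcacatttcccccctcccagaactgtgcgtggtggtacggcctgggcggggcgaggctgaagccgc
Mcm6, chr1:128359706-128359845, minus strand: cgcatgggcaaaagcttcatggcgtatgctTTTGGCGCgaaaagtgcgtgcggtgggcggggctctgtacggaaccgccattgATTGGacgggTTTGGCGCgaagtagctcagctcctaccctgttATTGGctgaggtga
Cdk1, chr10:69352913-69353052, minus strand: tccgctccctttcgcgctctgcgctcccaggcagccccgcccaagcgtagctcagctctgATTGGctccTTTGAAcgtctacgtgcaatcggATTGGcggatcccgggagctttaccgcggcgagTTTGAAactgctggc

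The CCAAT box was found in 27 of the 32 promoters (84.4%), against 42.8% of the 13490 tested genes with a promoter in the table and 41.1% of all 27025 genes in it. An E2F word was found in 8 of 32 (25%), against 3.04% and 1.80%, and 6 of those 8 belonged to the 9 licensing and firing genes of the table. The CHR was found in 13 of 32 (40.6%), against 15.0% and 20.2%, and it was in 3 of 5 mitotic kinase and checkpoint genes and in 3 of 4 spindle and centromere genes but in none of 6 DNA synthesis genes. The NRF1 words were found in 1 of 32 (3.12%), against 6.91% of the tested genes and 3.80% of all genes. The E2F, CHR and CCAAT letters were thus frequent in these promoters and the NRF1 letters were not. A match is a description of the letters in this window, and the binding of NRF1 was not analysed here.

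The libraries held between 26063590 and 39365841 counts (median 33862160), and the 40 genes had between 161 and 23045 counts in a library. Counting error was therefore small: the 95% exact Poisson interval of the lowest count, 161, ran from 137 to 188 and covers counting error only. The sample titles call the source germ cells, while the tissue label and the study's methods give whole testis. The 10 Sertoli cell markers summed to between 4035 and 7520 CPM (counts relative to library size, scaled by the trimmed mean of M-values, TMM) in the 11 libraries, against 84.8 to 508 CPM for 12 germ cell markers, so somatic RNA was abundant in all libraries. Of the germ cell markers, Dppa3 was at 0 in WT replicate 2 and Rhox13 in Nrf1 cKO replicate 2. The germ cell markers summed to 315 and 293 CPM in WT, 278 to 508 in Dnmt3C KO, 84.8 to 174 in Nrf1 cKO and 113 to 301 in dKO, and the Sertoli cell markers to 4273 and 4035, 4169 to 5518, 4937 to 7520 and 4883 to 5554. Fewer cells of a type and less RNA per cell cannot be told apart in such libraries. Nrf1 itself was between 44.96 and 60.8 CPM and Dnmt3c between 3.02 and 4.94 CPM over the 11 libraries. Nrf1 stood at 57.0 and 58.0 CPM in WT, 52.2 to 57.9 CPM in Nrf1 cKO, 56.8 to 60.8 CPM in dKO and 44.96 to 55.6 CPM in Dnmt3C KO, where all 3 libraries were below those of WT and dKO. The counts cover whole genes, and what the alleles remove is not given in the sources used here, so these values check no label. The labels number the libraries of a genotype as replicates without naming animals, so p-values measure the spread between these samples.

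Summed over the 40 genes, the level was 4860 and 5478 CPM in WT, 4094, 5236 and 4991 CPM in Dnmt3C KO, 5248, 4295 and 4029 CPM in Nrf1 cKO, and 4498, 5878 and 4800 CPM in dKO. The means were 5169 ± 437 (SD, n = 2), 4774 ± 602 (SD, n = 3), 4524 ± 641 (SD, n = 3) and 5059 ± 726 (SD, n = 3) CPM. These means spanned less than the libraries of any of the 3 mutants, though slightly more than the 2 WT libraries. Means vary less than single libraries, so this compares sizes only. The range of the libraries was narrow for each gene as well. The highest library of a gene exceeded its lowest by 1.23-fold (Cdk2) to 2.62-fold (Plk1), with a median of 1.68-fold, and 36 of the 40 genes stayed under 2-fold. The other 3 genes above 2-fold were Mki67, Cdc20 and Aurkb, all highest in dKO replicate 2.

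**Figure D1:**
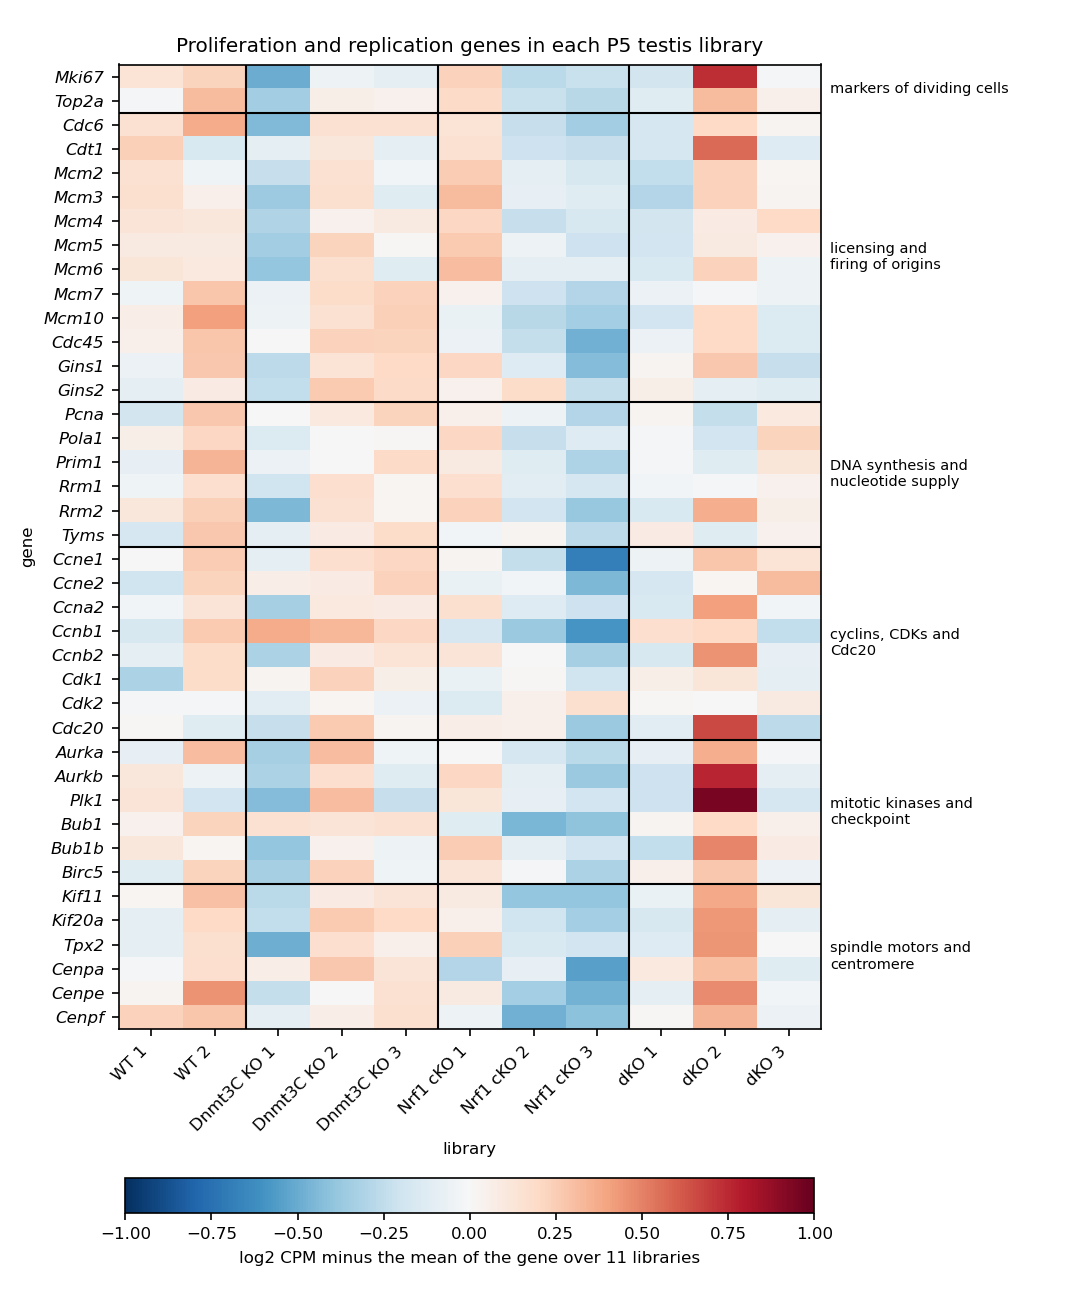
Heat map of 40 genes (rows, grouped by role) in 11 libraries (columns, grouped by genotype), coloured by log2 CPM minus the mean of the gene over the libraries. The columns differ within a genotype as much as between genotypes; dKO replicate 2 is the reddest, with Plk1 at 0.95, and Nrf1 cKO replicate 3 the bluest, with 39 of 40 genes below their mean.

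In most libraries the genes lay on one side of their means. In Nrf1 cKO replicate 3, 39 of 40 genes were below their mean over the libraries, in Nrf1 cKO replicate 2 there were 34, and in Dnmt3C KO replicate 1 there were 33. In Dnmt3C KO replicate 2, 36 genes were above their mean, in WT replicate 2 there were 34, and in dKO replicate 2 there were 32. The same genotype thus held libraries on both sides: Nrf1 cKO replicate 1 had 29 genes above their mean. Cdk2, the partner of cyclins E and A, went against the rest in Nrf1 cKO replicate 3, where it had its highest level of the 11 libraries.

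Per kilobase of exon, the highest levels over the 11 libraries were those of Pcna, the sliding clamp, at 86.0 CPM per kb, Mcm7 at 58.1, Ccnb2 at 52.4, Top2a, the topoisomerase that untangles replicated chromosomes, at 51.7, and Mcm6 at 47.4. The lowest were those of Ccne1 at 3.81 and Ccne2 at 4.30 CPM per kb, the cyclins of the entry into S phase, and Mcm10 at 5.38, a firing factor. The genes of the MCM2 to MCM7 subunits, which form a single ring, lay between 24.9 (Mcm2) and 58.1 (Mcm7) CPM per kb. Mcm7 shares exon sequence with Mir25 and Mir93 on its strand, and Top2a with Gm23451, so reads there could have been split. Rows for pseudogenes of Pcna, Tyms, Ccnb1 and Ccnb2 held at most 1.69% of the count of the parent gene.

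The comparison of Nrf1 cKO with WT asked how these genes differ with Nrf1 deleted in germ cells, and a KO copy in somatic cells, when Dnmt3C is intact. No gene of the list passed edgeR's quasi-likelihood test at an adjusted p under 0.01 (Benjamini-Hochberg over all features), as for 0.0% of the 21296 genes and TE subfamilies tested. With DESeq2 the study reported differentially expressed protein-coding genes between these genotypes, fewer of them upregulated than downregulated. The 0.0% therefore describes the test used here and does not say that no gene differed. The smallest adjusted p among the 40 genes was 0.833. At an unadjusted p under 0.05, 4 genes of the list were lower and 0 higher, where 4.22% of all features were lower and 1.53% higher. The DESeq2 Wald test gave 3 genes at that level. Of the 40 log2 fold changes 38 were below 0, where 10586 of the 21296 features were. The median of the 40 was −0.18 against 0.00 over all features. It was −0.08 without Nrf1 cKO replicate 3 and −0.31 without Nrf1 cKO replicate 1. The count of 4 became 0 without WT replicate 2, 1 without Nrf1 cKO replicate 2 or 3 and 9 without Nrf1 cKO replicate 1.

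Cenpf, a kinetochore protein of late G2 and mitosis, had the smallest p. It stood at 208 and 214 CPM in WT, 169.9, 126 and 133 CPM in Nrf1 cKO, 165, 186 and 198 CPM in Dnmt3C KO and 178, 223 and 169 CPM in dKO. All 3 Nrf1 cKO libraries were below both WT libraries, and Nrf1 cKO replicate 1 was above the lowest library of both other mutants. The gene lies at chr1:189640606-189688086 on the minus strand (GRCm38). The log2 fold change of Nrf1 cKO over WT was −0.57 (SE 0.19, 95% interval −1.0 to −0.13, adjusted p = 0.833 by edgeR).

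Mcm10, which binds the helicase as it fires, was at 43.0 and 54.1 CPM in WT and 38.8, 33.6 and 32.2 CPM in Nrf1 cKO, and at 39.6, 45.3 and 48.2 CPM in Dnmt3C KO and 35.9, 46.8 and 37.2 CPM in dKO. The 3 Nrf1 cKO libraries were the lowest but for dKO replicates 1 and 3, which lay among them. For this gene, at chr2:4989714-5012791 on the minus strand, the log2 fold change in Nrf1 cKO over WT was −0.48 (SE 0.18, 95% interval −0.87 to −0.09, adjusted p = 0.833 by edgeR), and it was −0.31 without WT replicate 2 and −0.62 without WT replicate 1.

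Bub1, a kinase of the spindle checkpoint, was at 58.5 and 66.4 CPM in WT and 52.4, 41.2 and 43.2 CPM in Nrf1 cKO. It was at 63.2, 62.1 and 63.2 CPM in Dnmt3C KO and 58.2, 65.1 and 59.0 CPM in dKO. The 3 Nrf1 cKO libraries were the lowest 3 of the 11, and the other genotypes overlapped. For this gene, at chr2:127801122-127831865 on the minus strand, the log2 fold change in Nrf1 cKO over WT was −0.46 (SE 0.17, 95% interval −0.85 to −0.07, adjusted p = 0.843 by edgeR), and Cdc45, the helicase activator, followed at −0.43 (SE 0.18, adjusted p = 0.852), with 40.5 and 47.4 CPM in WT and 37.4, 32.9 and 27.9 CPM in Nrf1 cKO. Its level was 38.8, 45.7 and 45.5 CPM in Dnmt3C KO and 37.3, 44.7 and 35.4 CPM in dKO, where dKO replicates 1 and 3 were within the range of Nrf1 cKO.

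By role, the median log2 fold change of Nrf1 cKO over WT was −0.38 for the 6 spindle and centromere genes, −0.26 for Mki67 and Top2a, −0.17 for the 6 DNA synthesis genes, −0.16 for the 12 licensing and firing genes, and −0.11 for both the 8 genes of cyclins, CDKs and Cdc20 and the 6 mitotic kinase and checkpoint genes. Germ cell markers were low in the same comparison without passing the test: all 11 that were tested had a log2 fold change below 0, with a median of −1.30, and 9 had an unadjusted p under 0.05, though the smallest adjusted p was 0.395. The 10 Sertoli cell markers had a median of 0.48, with 10 of 10 above 0, as were 5 of 5 endothelial (0.43), 5 of 5 macrophage (0.26) and 5 of 6 Leydig cell markers (0.29). By contrast, 5 of 5 red blood cell markers were below 0 (−0.82). Nrf1 cKO replicate 3, which had 39 of the 40 genes below their mean, had the highest sum of Sertoli cell markers, 7520 CPM against 4937 and 5145 CPM in the other Nrf1 cKO libraries, and without it the median of the 40 genes was −0.08. The part of these cell types in the values of the 40 genes was not tested.

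**Figure D2:**
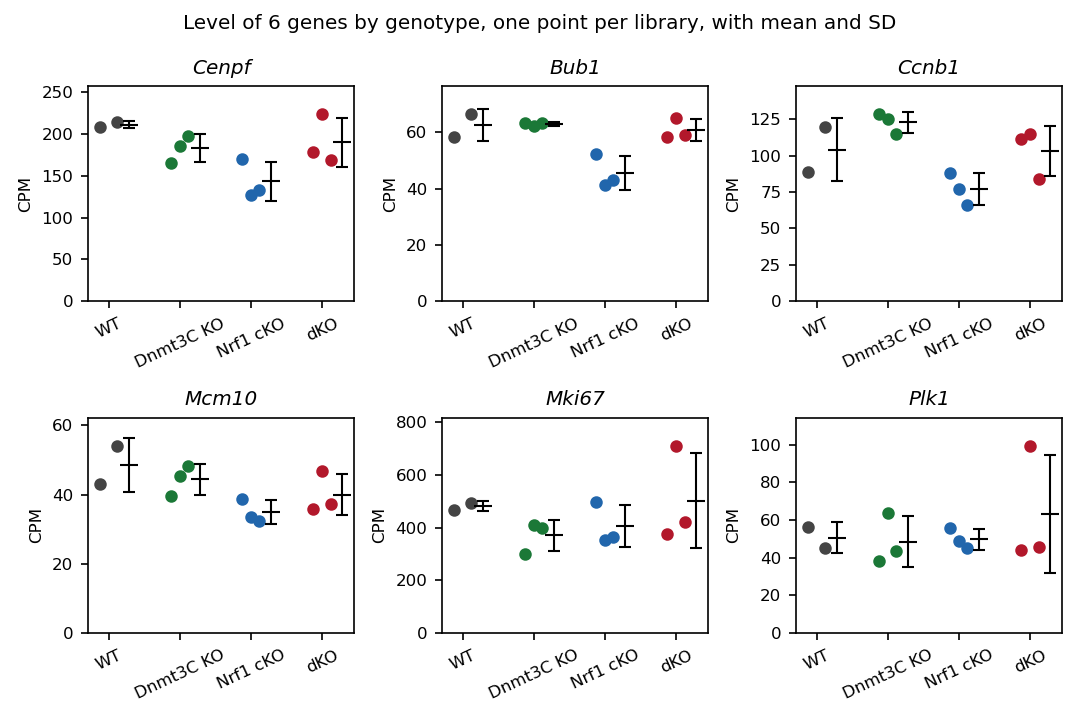
CPM of Cenpf, Bub1, Ccnb1, Mcm10, Mki67 and Plk1 (y axis, from 0) by genotype (x axis), with 1 point per library and the mean and SD beside them. Bub1 shows its 3 lowest libraries in Nrf1 cKO, while in Plk1 a single dKO library at 99.5 CPM carries the SD of its group.

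The comparison of Dnmt3C KO with WT asked what loss of DNMT3C does with Nrf1 intact. No gene of the list passed edgeR's test, as for 0.0% of the 21664 features. At an unadjusted p under 0.05, 0 genes of the list were higher or lower, where 2.56% of all features were higher and 2.86% lower. By the DESeq2 Wald test it was 1 gene at that level. The median log2 fold change was −0.09 against 0.01 over all features, and it was 0.04 without WT replicate 2 and −0.16 without Dnmt3C KO replicate 2. Without WT replicate 2 the count was 2, and without WT replicate 1 it was 1.

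Mki67, the nuclear protein by which dividing cells are stained, had the smallest p in that comparison. It was at 468 and 496 CPM in WT, 301, 411 and 399 CPM in Dnmt3C KO, 498, 354 and 366 CPM across Nrf1 cKO and 377, 712 and 421 CPM across dKO libraries. The Dnmt3C KO libraries were below both WT libraries, but so were 2 libraries each of Nrf1 cKO and dKO. The log2 fold change of Dnmt3C KO over WT was −0.38 (SE 0.18, 95% interval −0.78 to 0.02, adjusted p = 0.893 by edgeR), and −0.24 without Dnmt3C KO replicate 1.

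Cenpe, the motor that brings chromosomes to the spindle equator, followed with −0.28 (SE 0.18, adjusted p = 0.942 by edgeR). It was at 111 and 148 CPM in WT, 91.8, 109 and 121 in Dnmt3C KO, 116, 86.0 and 78.5 across Nrf1 cKO and 101, 150.4 and 107 across dKO libraries. Cdc6, the loader of the helicase, had −0.28 (SE 0.19, adjusted p = 0.947 by edgeR), from 37.2 and 43.2 CPM in WT, 24.8, 37.1 and 37.2 in Dnmt3C KO, 37.0, 28.5 and 26.2 across Nrf1 cKO and 29.8, 38.5 and 34.1 across dKO libraries. Cenpe overlapped between the groups, the WT and Dnmt3C KO libraries of Cdc6 nearly met, and Dnmt3C KO replicate 1 gave the lowest Cdc6 level of the 11 libraries. Without that library, the log2 fold change of Cdc6 was −0.10, and that of Cenpe was −0.17. Cenpe was at −0.03 without WT replicate 2 and −0.46 without WT replicate 1.

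Dnmt3C KO replicate 1 held 16 of the 40 lowest values, and it also had the highest sum of germ cell markers, 508 CPM, against 278 and 331 CPM in the other Dnmt3C KO libraries. Its Sertoli cell markers, 4169 CPM, were the lowest of the 3. Whether the makeup of that testis sample bears on the 40 genes was not tested. The median of the germ cell markers in Dnmt3C KO over WT was 0.26, and 3 of 11 had an unadjusted p under 0.05, all higher. Red blood cell markers were lower in 5 of 5 (−1.24, each with an unadjusted p under 0.05), and 5 of 5 macrophage (0.46) and 5 of 5 peritubular markers (0.20) were above 0, as were 5 of 6 Leydig cell markers (0.24, with 2 at that level).

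The comparison of dKO with WT gave no gene of the list past edgeR's test, as for 0.0% of 21488 features, and 0 genes at an unadjusted p under 0.05, where 0.544% of all features were higher and 1.19% lower. The DESeq2 Wald test also gave 0 at that level. The median log2 fold change was −0.05 against 0.01 over all features, and it lay between −0.15 (without dKO replicate 2) and 0.10 (without WT replicate 2). The germ cell markers were below 0 in 11 of 11 (median −0.59, with 3 at an unadjusted p under 0.05), the Sertoli cell markers above 0 in 10 of 10 (0.28) and the red blood cell markers below 0 in 5 of 5 (−1.48, each at that level). Their part in the values of the 40 genes was not tested. Mcm10 had −0.28 (SE 0.18, 95% interval −0.69 to 0.12, adjusted p = 1.0 by edgeR), Cdc6 had −0.24 (SE 0.17) and Mcm7, a helicase subunit, had −0.18 (SE 0.18). Without WT replicate 2 these values were −0.10, −0.12 and −0.01, and without WT replicate 1 they were −0.45, −0.35 and −0.34. Mcm7 stood at 249.1 and 311 CPM in WT, 245, 289 and 299 in Dnmt3C KO, 263, 220.1 and 209 across Nrf1 cKO and 245, 252 and 247 across dKO libraries. The 3 dKO libraries lay close together for Mcm7, near WT replicate 1 and Dnmt3C KO replicate 1, and below the other WT and Dnmt3C KO libraries.

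The comparison of dKO with Dnmt3C KO asked what deletion of Nrf1 does when Dnmt3C is already lost. None of the 40 genes passed edgeR's test, as for 0.0% of 20783 features, and 0 genes had an unadjusted p under 0.05, where 3.10% of all features were higher and 4.08% lower. By the DESeq2 Wald test it was 1. The median log2 fold change was 0.05 against 0.02 over all features, and −0.07 without dKO replicate 2, where 3 genes had an unadjusted p under 0.05. Mki67 had the smallest p, at 0.44 (SE 0.23, 95% interval −0.08 to 0.96, adjusted p = 0.675 by edgeR), and this value was 0.09 without dKO replicate 2. Ccnb1 had −0.25 (SE 0.14, 95% interval −0.56 to 0.05, adjusted p = 0.675 by edgeR) and Mcm7 had −0.17 (SE 0.12, adjusted p = 0.721 by edgeR). Ccnb1 was at −0.12 without dKO replicate 3 and Mcm7 at −0.11 without Dnmt3C KO replicate 3. In this comparison 11 of 11 germ cell markers were below 0 (median −0.95, with 8 at an unadjusted p under 0.05), as were 5 of 5 peritubular (−0.37) and 5 of 5 macrophage markers (−0.38). So were 5 of 6 Leydig cell (−0.20, with 2 at that level), 4 of 5 red blood cell (−0.40) and 4 of 5 endothelial markers (−0.12). Of the Sertoli cell markers 8 of 10 were above 0 (0.27, with 3 at that level). Their part in the values of the 40 genes was not tested.

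The comparison of dKO with Nrf1 cKO asked what loss of DNMT3C does when Nrf1 is deleted. Again 0 of the 40 genes passed edgeR's test, as for 0.0% of 20381 features, and the smallest adjusted p was 1.0. At an unadjusted p under 0.05, 4 genes of the list were higher and 0 lower, where 1.94% of all features were higher and 0.868% lower. At that level, the DESeq2 Wald test gave 4. Of the 40 log2 fold changes 36 were above 0, where 9845 of the 20381 features were. The median of the 40 was 0.16 against −0.01 over all features. It was 0.07 without dKO replicate 2 and 0.29 without Nrf1 cKO replicate 1. The count was 1 without dKO replicate 2 or Nrf1 cKO replicate 2 or 3. Of the cell markers, 10 of 11 for germ cells were above 0 (median 0.59), while every somatic list lay mostly or wholly below 0. This held for 10 of 10 for Sertoli cells (−0.17), 5 of 6 for Leydig cells (−0.33), and 5 of 5 each for endothelial (−0.71), red blood (−0.69), macrophage (−0.31) and peritubular markers (−0.29). Their part in the values of the 40 genes was not tested. The 4 genes were Bub1 at 0.42 (SE 0.13, 95% interval 0.12 to 0.71), Ccnb1 at 0.42 (SE 0.16), Cenpf at 0.41 (SE 0.17) and Cenpa, the histone H3 variant of centromeres, at 0.39 (SE 0.16), each with an adjusted p of 1.0 by edgeR. This comparison and that of Nrf1 cKO with WT share the Nrf1 cKO libraries, in which Bub1, Ccnb1, Cenpf and Cenpa were low, so the opposite signs in them are not independent.

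Ccnb1, the cyclin that activates CDK1 at the entry into mitosis, recurred in several comparisons. It was at 88.7 and 119 CPM in WT, 128, 125 and 115 CPM in Dnmt3C KO, 88.2, 77.0 and 66.0 CPM across Nrf1 cKO and 111, 114 and 83.7 CPM across dKO libraries. Nrf1 cKO replicate 1 nearly met WT replicate 1, the Dnmt3C KO libraries overlapped with WT replicate 2, and dKO replicate 3 lay among the Nrf1 cKO values. Cenpa was at 86.8 and 98.2 CPM in WT, 91.7, 105 and 95.7 in Dnmt3C KO, 71.2, 82.8 and 59.8 across Nrf1 cKO and 93.4, 107 and 80.2 across dKO libraries. Its Nrf1 cKO libraries were below both WT libraries, and dKO replicate 3 was below Nrf1 cKO replicate 2.

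In a fit of all 11 libraries, the 6 with Nrf1 deleted were set against the 5 with Nrf1 intact as the mean of both comparisons. This gave the tightest values: the median standard error was 0.13, and no gene of the list passed edgeR's test. Of the 22594 features 0.00443% did, namely Tuba3a, an alpha tubulin of the testis, with a log2 fold change of −1.25 (SE 0.13, adjusted p = 0.00646 by edgeR), named here after its value was seen. The count over all features was 0 with the replicate block, and also without WT replicate 2, Nrf1 cKO replicate 2 or 3, or any single Dnmt3C KO or dKO library. It was 7 with no filter on low counts and 55 (49 of them lower) by the DESeq2 Wald test. At an unadjusted p under 0.05, 5 genes of the list were lower and 0 higher, where 4.66% of all features were lower and 3.87% higher. The DESeq2 Wald test gave 6. The 5 were Mcm10 at −0.31 (SE 0.11, adjusted p = 0.489 by edgeR), Ccnb1 at −0.34 (SE 0.12, adjusted p = 0.494), Bub1 at −0.25 (SE 0.09, adjusted p = 0.495), Cdc45 at −0.29 (SE 0.11, adjusted p = 0.517) and Cenpf at −0.25 (SE 0.11, adjusted p = 0.576). Ccnb1 was at −0.22 without WT replicate 2.

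The count of genes at an unadjusted p under 0.05 rested on WT replicate 2: it was 0 without that library and 4 to 6 without any other. WT replicate 2 had the highest sum of red blood cell markers of the 11 libraries, 2124 CPM against 659 CPM in WT replicate 1, and the part of this in the values was not tested. The median over the 40 genes was −0.06 against 0.00 over all features, and it was −0.12 without Dnmt3C KO replicate 1 and −0.01 without Dnmt3C KO replicate 2. By role, it was −0.13 for the spindle and centromere genes, −0.08 for the DNA synthesis genes, −0.05 for the licensing and firing genes, −0.03 for cyclins, CDKs and Cdc20, 0.03 for Mki67 and Top2a, and 0.05 for the mitotic kinase and checkpoint genes. In the same fit, the log2 fold changes of all 11 germ cell markers tested lay below 0 (median −1.11), and 10 had an unadjusted p under 0.05, none of them past the adjusted threshold (smallest 0.228 by edgeR). The Sertoli cell markers had 10 of 10 above 0 (median 0.38, with 4 at that unadjusted level), and the red blood cell markers 5 of 5 below 0 (−0.53). The part of these cells in the values of the 40 genes was not tested.

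The effect of DNMT3C loss was estimated in the same fit, over both Nrf1 states. No gene of the list passed edgeR's test, as for 0.0% of 22594 features. At an unadjusted p under 0.05, 2 genes were higher and 0 lower, where 1.95% of all features were higher and 0.969% lower. At that level, the DESeq2 Wald test gave 3. They were Ccnb1 at 0.33 (SE 0.12, 95% interval 0.07 to 0.59) and Bub1 at 0.21 (SE 0.09, 95% interval 0.02 to 0.40), both with an adjusted p of 1.0 by edgeR, and Cenpa came next at 0.23 (SE 0.11). The count was 0 without WT replicate 1 and 1 to 3 without any other library. Germ cell markers had 10 of 11 above 0 (median 0.49, with 4 at an unadjusted p under 0.05), and 5 of 5 endothelial (−0.40) and 5 of 5 red blood cell markers (−0.95, with 2 at that level) were below 0. Their part in the values of the 40 genes was not tested. The median over the 40 genes was 0.04 against 0.00 over all features, and it was −0.03 without WT replicate 1 and 0.12 without WT replicate 2.

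The interaction asked whether loss of DNMT3C differs in its effect between testes with and without Nrf1. None of the 40 genes passed edgeR's test, as for 0.0% of 22594 features, with a smallest adjusted p of 0.895. At an unadjusted p under 0.05, 3 genes were above 0 and 0 below, where 3.68% of all features were above and 1.87% below. The DESeq2 Wald test gave 3. They were Cenpf at 0.61 (SE 0.22, 95% interval 0.13 to 1.1), Cenpe at 0.63 (SE 0.29, 95% interval 0.01 to 1.26) and Bub1 at 0.40 (SE 0.18, 95% interval 0.02 to 0.79), and Cenpe was at 0.39 without WT replicate 2. Of the 40 values 38 were above 0, where 11111 of the 22594 features were. The median over the 40 genes was 0.24 against −0.01 over all features. It was 0.09 without dKO replicate 2 and 0.37 without Nrf1 cKO replicate 1. The count was 8 without Nrf1 cKO replicate 1, 0 without WT replicate 2, Dnmt3C KO replicate 1 or dKO replicate 2, and 1 without Dnmt3C KO replicate 2 or Nrf1 cKO replicate 2 or 3. By role it was 0.56 for Mki67 and Top2a, 0.43 for spindle and centromere genes, 0.38 for mitotic kinase and checkpoint genes, 0.19 for licensing and firing genes, 0.16 for cyclins, CDKs and Cdc20, and 0.14 for DNA synthesis genes. In the interaction the germ cell markers had 9 of 11 above 0 (median 0.42) and the red blood cell markers 5 of 5 (0.59). The 6 Leydig (−0.50), 5 peritubular (−0.49), 5 endothelial (−0.63) and 5 macrophage (−0.77) markers were all below 0, as were 8 of 10 Sertoli cell markers (−0.22). Their part in the values of the 40 genes was not tested. A test of whether the 4 genotypes share a level gave no gene past edgeR's threshold, as for 0.0% of 22594 features, and 6 genes at an unadjusted p under 0.05, where 6.06% of all features had one. These were Bub1 (adjusted p = 0.575 by edgeR), Ccnb1 (0.607), Cenpf (0.750), Cenpa (0.791), Mcm10 (0.814) and Cdc45 (0.819). Leaving out a library gave between 2 (without Nrf1 cKO replicate 3) and 7 (without Nrf1 cKO replicate 1) genes, with 3 without WT replicate 2, Dnmt3C KO replicate 2 or 3, Nrf1 cKO replicate 2 or dKO replicate 1.

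**Figure D3:**
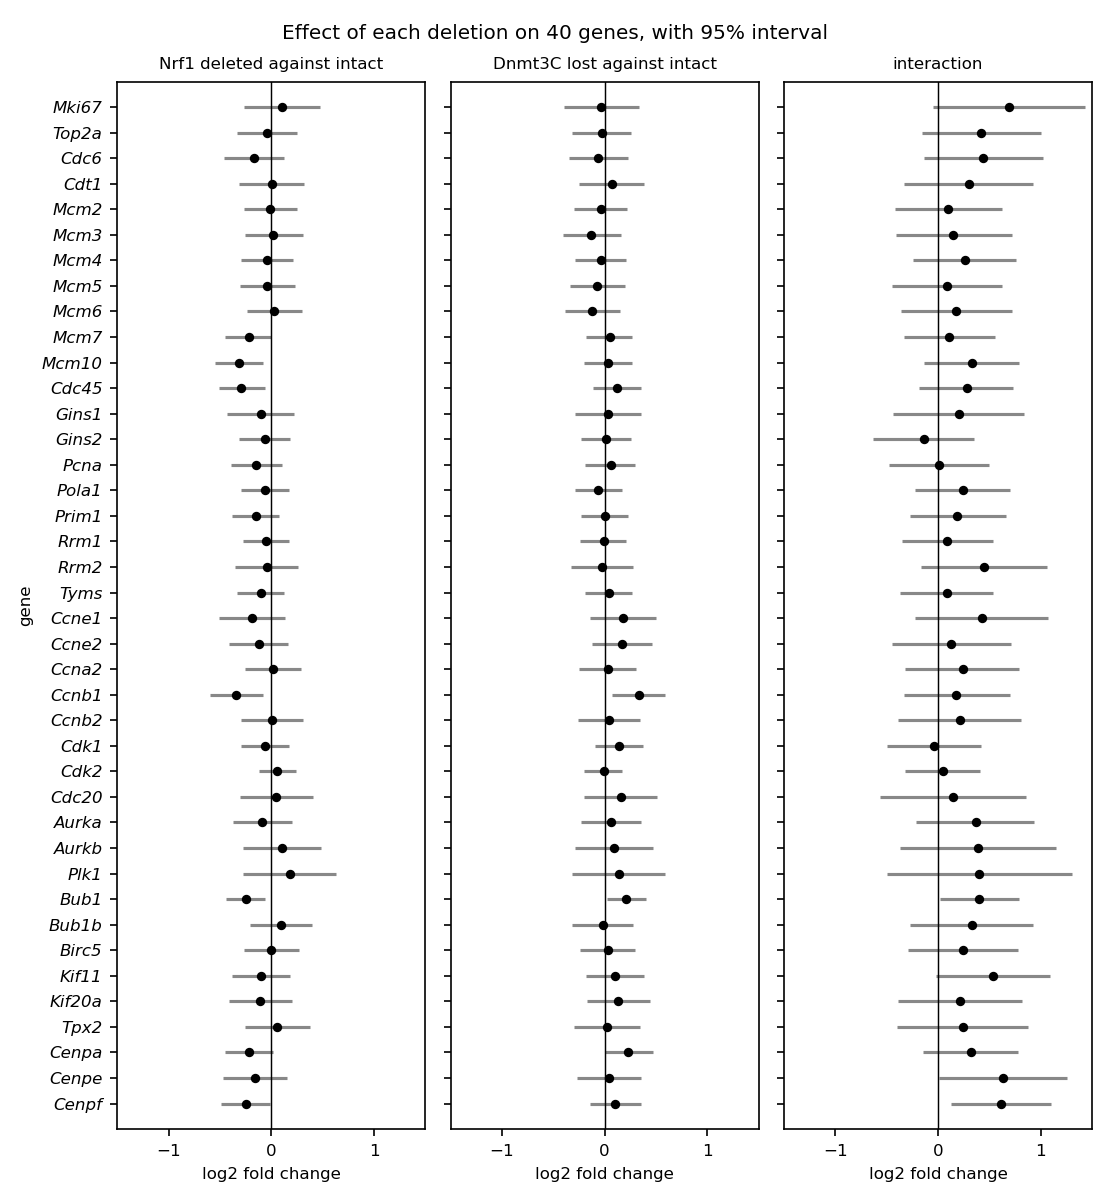
Log2 fold change (points) and 95% interval (lines) of 40 genes from the fit of 11 libraries, for Nrf1 deletion, for Dnmt3C loss and for their interaction. The points of the first 2 panels lie between −0.34 and 0.33, both ends being Ccnb1, and the intervals of the interaction are wider, reaching 1.43 for Mki67.

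The intervals say how large a difference in whole-testis RNA these libraries leave room for. A difference within germ cells alone could be larger, because somatic cells add RNA of the same genes. For Nrf1 deletion, the intervals of all 40 genes lay inside 2-fold in either direction, with the lowest bound at −0.60 (Ccnb1) and the highest at 0.63 (Plk1) on the log2 scale. For DNMT3C loss all 40 did as well, between −0.41 (Mcm3) and 0.59 (Plk1). In the pairs, 38 of 40 genes were inside 2-fold for Nrf1 cKO over WT, 40 for Dnmt3C KO over WT, 39 for dKO over WT, 39 for dKO over Dnmt3C KO and 40 for dKO over Nrf1 cKO. The interaction was less well bounded: 30 of 40 intervals were inside 2-fold, and that of Mki67 reached 1.43. On either side of the estimate, the median width of an interval was 1.21-fold for either deletion in the fit of 11 libraries, 1.27-fold to 1.35-fold in the pairs and 1.46-fold for the interaction.

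Several genes used as readouts of proliferation had no p under 0.05 in any comparison. Top2a was at 458 and 575 CPM in WT, 361, 479 and 472 in Dnmt3C KO, 526, 395 and 379 across Nrf1 cKO and 425, 575 and 478 across dKO libraries. Pcna was at 181 and 246 CPM in WT, 205, 220.0 and 239 in Dnmt3C KO, 211, 197 and 168 across Nrf1 cKO and 209.7, 173 and 219 across dKO libraries. Mcm2, a helicase subunit, was at 191 and 168 CPM in WT, 146, 190.2 and 169 in Dnmt3C KO, 205, 159.9 and 153 across Nrf1 cKO and 144, 202 and 174 across dKO libraries. In all 3 the genotypes overlapped, and the WT libraries alone spanned much of the range of Pcna and Top2a.

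Among the cyclins and their kinase, Ccne1 was at 10.0 and 11.9 CPM in WT, 9.34, 11.3 and 11.5 in Dnmt3C KO, 10.2, 8.44 and 6.23 across Nrf1 cKO and 9.62, 12.1 and 10.97 across dKO libraries. Ccna2, the cyclin of S phase and G2, was at 135 and 150.4 CPM in WT, 109, 148 and 145 in Dnmt3C KO, 153, 126 and 119 across Nrf1 cKO and 124, 183 and 134 across dKO libraries. Cdk1, the kinase of mitotic entry, was at 134 and 189.9 CPM in WT, 170.5, 197 and 175 in Dnmt3C KO, 159.5, 168 and 145 across Nrf1 cKO and 174, 182 and 157 across dKO libraries. The genotypes overlapped in each, Ccne1 had its lowest level in Nrf1 cKO replicate 3, and Cdk1 had its lowest level in WT replicate 1.

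The remaining genes are given by the lowest, median and highest of the 11 libraries and by the log2 fold change for Nrf1 deletion, and none of them had an unadjusted p under 0.05 in any comparison. Among the licensing and firing genes, Mcm3 (123, 162 and 199 CPM, 0.02 with SE 0.13), Mcm4 (114, 148 and 162 CPM, −0.04 with SE 0.12), Mcm5 (137, 179.9 and 209.6 CPM, −0.04 with SE 0.12) and Mcm6 (168, 213 and 271 CPM, 0.03 with SE 0.13) encode helicase subunits. All of these were lowest in Dnmt3C KO replicate 1 and highest in Nrf1 cKO replicate 1. Cdt1, with the NRF1 word shown above, ran at 30.1, 32.8 and 52.2 CPM with a log2 fold change of 0.01 with SE 0.15, and Gins1 (12.7, 17.5 and 20.6 CPM, −0.10 with SE 0.15) and Gins2 (33.6, 41.2 and 47.9 CPM, −0.06 with SE 0.11) belong to the helicase activator.

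Of the DNA synthesis genes, Pola1 (43.6, 51.3 and 59.9 CPM, −0.06 with SE 0.11) and Prim1 (42.01, 51.4 and 66.1 CPM, −0.15 with SE 0.11) encode the catalytic subunits of polymerase alpha and primase. The nucleotide supply genes were Rrm1 (231, 263 and 298 CPM, −0.05 with SE 0.10) and Rrm2 (32.8, 46.8 and 57.8 CPM, −0.04 with SE 0.14), the subunits of ribonucleotide reductase, and Tyms (64.0, 78.5 and 92.5 CPM, −0.10 with SE 0.10), thymidylate synthase. Ccne2 (10.9, 15.1 and 18.5 CPM, −0.12 with SE 0.13) and Ccnb2 (63.3, 79.3 and 108 CPM, 0.01 with SE 0.14) are cyclins of the entry into S phase and mitosis, and Cdk2 varied least of the 40 (105, 116 and 129.6 CPM, 0.06 with SE 0.08).

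Of the mitosis genes, Aurka, a kinase of centrosomes and spindle poles, ran at 41.2, 50.5 and 66.7 CPM (−0.09 with SE 0.13), Bub1b, a checkpoint protein, at 87.2, 116 and 161 CPM (0.09 with SE 0.14), and Birc5, a subunit of the passenger complex, at 48.3, 59.9 and 73.2 CPM (0.00 with SE 0.12). The spindle motor Kif11 ran at 104, 144 and 178 CPM (−0.10 with SE 0.13), the cytokinesis motor Kif20a at 106, 125 and 181 CPM (−0.11 with SE 0.14) and Tpx2, which activates AURKA on the spindle, at 112, 158 and 214 CPM (0.06 with SE 0.15). All 6 were highest in dKO replicate 2. Their lowest library was Dnmt3C KO replicate 1 for Aurka, Bub1b, Birc5 and Tpx2 and Nrf1 cKO replicate 3 for Kif11 and Kif20a.

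A single library stood apart in the mitosis genes. Plk1, the Polo kinase that drives mitotic entry and spindle assembly, was at 56.3 and 44.9 CPM in WT, 38.0, 63.8 and 43.6 in Dnmt3C KO, 55.9, 48.7 and 44.9 across Nrf1 cKO and 44.3, 99.5 and 45.6 across dKO libraries. The dKO replicate 2 value was the highest of the 11, while the other dKO libraries lay within the range of the other genotypes. That library held 20 of the 40 highest values, among them those of Mki67, Plk1, Aurkb, the kinase of the chromosomal passenger complex, at 82.0 CPM against 37.3 to 55.9 CPM elsewhere, and Cdc20, the activator of the anaphase-promoting complex, at 129.9 CPM against 63.3 to 98.1 CPM elsewhere.

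The mean log2 CPM of the 12 genes of mitotic kinases, checkpoint, spindle and centromere exceeded that of the 18 replication genes by 0.47 in dKO replicate 2. In the other 10 libraries the difference lay between 0.05 and 0.16, at 0.14 and 0.09 in the other dKO libraries and at 0.05 in each Nrf1 cKO library. The mean of its replication genes, 6.45, was below those of WT replicate 2 (6.53), Nrf1 cKO replicate 1 (6.49) and Dnmt3C KO replicate 2 (6.48) and above the other 7. Of these, the 12 licensing and firing genes had their highest mean of the 11 libraries there (6.46, against 6.44 in WT replicate 2), and the 6 DNA synthesis genes stood at 6.43, against 6.22 to 6.73 elsewhere. The same library had the lowest sums of the 11 for the markers of Leydig cells (759 CPM, against 780.5 to 1762), peritubular cells (1237, against 1321 to 2130), endothelial cells (244, against 252 to 418), macrophages (57.4, against 87.0 to 136.5) and red blood cells (261, against 309 to 2124), with 222 CPM for germ cell and 5554 CPM for Sertoli cell markers. The part of cell makeup in its mitosis genes was not tested.

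**Figure D4:**
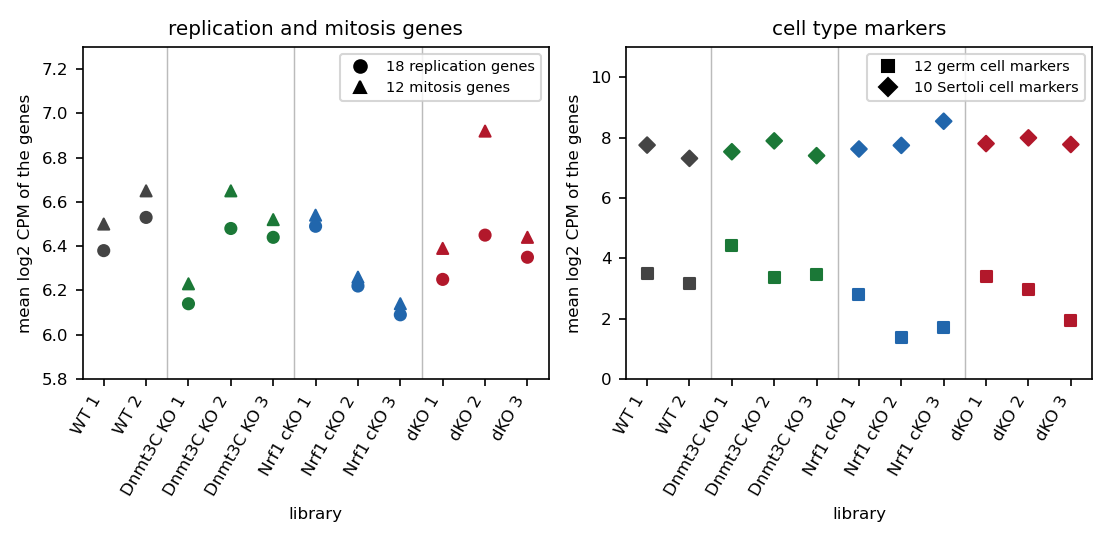
Mean log2 CPM per library (x axis, coloured by genotype) of 18 replication and 12 mitosis genes (left) and of 12 germ cell and 10 Sertoli cell markers (right). The mitosis genes stand 0.47 above the replication genes in dKO replicate 2 and 0.05 to 0.16 above in the other 10 libraries, and germ cell markers are lowest in Nrf1 cKO replicates 2 and 3.

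Wider lists of the pathway, sharing no gene with the 40, gave 0 genes past edgeR's test in any of the 9 comparisons. They were 29 genes of cell cycle entry and its brakes, 44 other replication genes and 60 other mitosis genes, all of them tested. These lists were also chosen with earlier results of these data known. For Nrf1 deletion, an unadjusted p under 0.05 was found for 3 higher and 2 lower entry genes; 0 replication genes were higher and 7 lower, and 2 mitosis genes were higher and 5 lower, where 3.87% of all features were higher and 4.66% lower. The medians were 0.08, −0.07 and −0.05. For dKO over Nrf1 cKO, 10 of the 60 mitosis genes and 4 of the 44 replication genes were higher at that level and 0 lower, with medians of 0.22 and 0.13, while 0 entry genes were. Over all features it was 1.94% higher and 0.868% lower. For Nrf1 cKO over WT, 8 mitosis, 3 replication and 2 entry genes were lower and 0, 0 and 2 higher, against 4.22% and 1.53% of all features. For the interaction, 12 mitosis, 3 replication and 3 entry genes were above 0 at that level and 0 below, against 3.68% and 1.87% of all features. The test of any difference had 11 mitosis, 5 replication and 3 entry genes at that level, against 6.06% of all features. In each of the other 4 comparisons, between 0 and 3 genes of a list were higher and between 0 and 4 lower, where 0.544% to 3.10% of all features were higher and 0.969% to 4.08% lower.

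The smallest p of each list for Nrf1 deletion belonged to Cdkn2a, Wdhd1 and Kif18a. Cdkn2a, the locus of the INK4A and ARF brakes on the cell cycle, was at 9.12 and 8.48 CPM in WT, 12.5, 9.48 and 8.71 in Dnmt3C KO, 4.83, 3.59 and 2.90 across Nrf1 cKO and 6.24, 5.87 and 3.45 across dKO libraries. All 6 libraries with Nrf1 deleted were below all 5 with it intact, and the log2 fold change was −1.1 (SE 0.20, adjusted p = 0.200 by edgeR). Wdhd1, which ties the helicase to DNA polymerase alpha, was at 75.7 and 75.9 CPM in WT, 71.4, 63.5 and 71.3 in Dnmt3C KO, 53.3, 36.1 and 42.5 across Nrf1 cKO and 55.9, 60.1 and 50.4 across dKO libraries. The 6 libraries with Nrf1 deleted were again below the 5 with it intact, and the log2 fold change was −0.55 (SE 0.10, adjusted p = 0.228 by edgeR). Cdkn2a and Wdhd1 were picked for their p in this same comparison, so their separation adds no support, and it was not counted over all features. Germ cell markers were lower in the same fit (median −1.11), and their part in these values was not tested. Kif18a, a motor that aligns chromosomes, had −0.44 (SE 0.11, adjusted p = 0.338 by edgeR), from a mean of 25.2 CPM in WT and 24.9 in Dnmt3C KO to 15.7 in Nrf1 cKO and 21.8 in dKO. Of the pairs, Orc1, the largest subunit of the origin recognition complex, had the smallest p among replication genes for Nrf1 cKO over WT, with a log2 fold change of −0.88 (SE 0.21, adjusted p = 0.692 by edgeR) and means of 11.2 CPM against 20.5 CPM. The NRF1 words were found in the promoters of 3 of 21 entry genes, 6 of 36 replication genes and 4 of 52 mitosis genes of these lists that are in the RefSeq table, against 6.91% of the tested genes.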

How the data were processed

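Poly(A) RNA of whole testes at P5 was sequenced by the study, which left out 1 replicate of each genotype for low RNA integrity. Per the study's methods and processing notes, the authors aligned reads with STAR 2.7.3a to GRCm38 (GENCODE) and counted them by strand on genes and TE subfamilies with TEtranscripts, multi-mapped reads included. They deposited raw counts in 6 pairwise tables, with columns of their own DESeq2 1.44.0 comparisons (means, fold changes, errors and p-values) that were not used here; a table of TE copies was not used either. The tables were joined by identifier, and 0 counts of a library differed between tables. Libraries held 26063590 to 39365841 counts.

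edgeR 4.0.16 (R 4.3.3) was used: filterByExpr, TMM factors, the quasi-likelihood F test, Benjamini-Hochberg adjustment over all genes and TE subfamilies, and a threshold of 0.01. The 5 pairs were fitted separately, and 1 fit of 11 libraries gave the mean effect of each deletion, their interaction and a test of any difference. Standard errors were taken from the fold change and F. Log2 CPM used a prior count of 1. The DESeq2 1.42.0 Wald test, other scalings, no filter, a threshold of 0.05, genes only, 1 fit of all genotypes, the replicate block and leaving out each library were alternatives, and the fitting code was tested on simulated data. Scripts ran in Python 3.11.15. Values in every library are given for a named set of proliferation readouts and for the 3 genes with the smallest p in each comparison; other pathway genes are named only as the smallest p of their list. The genes and lists were chosen with earlier results of these data known.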

Additional observations from a re-analysis of the deposited data

How the results depend on the processing

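No gene of the 40 passed the threshold in any of the 9 comparisons under any alternative run, with 0 as the lowest and highest count when each library was left out. The smallest adjusted p over all alternatives was 0.231 (edgeR's quasi-likelihood test, Bub1, Nrf1 deletion, without Nrf1 cKO replicate 1). The replicate numbers are those of the sample titles, and the deposited columns of Dnmt3C KO replicate 3 and dKO replicate 3 carry other numbers. Whether equal numbers mark littermates is not given. Deviations of 15 same-numbered pairs correlated between −0.233 and 0.221. This does not settle it, since the deviations of the 2 WT libraries mirror each other by construction. With the replicate block, 0 genes of the 40 passed the threshold, and 3 had an unadjusted p under 0.05 for Nrf1 cKO over WT. The median log2 fold change of the 40 genes in that pair was −0.07 with the block, against −0.18 without it. WT had no replicate 3, so in the pairs with WT the block absorbs the mutant's replicate 3. Those fits then rest on replicates 1 and 2. Over all features the block gave 87 calls for Nrf1 cKO over WT, 131 for Dnmt3C KO over WT and 21 for dKO over WT, and no filter gave 138, 158 and 13, against 0 in each as reported. The DESeq2 Wald test gave 25, 24 and 4 there, 21 for dKO over Dnmt3C KO, 11 for dKO over Nrf1 cKO and 29 for DNMT3C loss, where edgeR gave 0, and 55 for Nrf1 deletion, where edgeR gave 1; for the interaction both gave 0. The share of 0.0% is thus that of edgeR's test with the filter, without the block and with every library. Without Nrf1 cKO replicate 1, edgeR gave 25 calls for Nrf1 cKO over WT. Without Dnmt3C KO replicate 3, it gave 3 for Dnmt3C KO over WT. Counts at an unadjusted p under 0.05 moved more: for Nrf1 cKO over WT they ran from 3 (replicate block) to 8 (library totals without TMM), and from 0 (without WT replicate 2) to 9 (without Nrf1 cKO replicate 1). For the interaction, they ran from 0 (without WT replicate 2) to 8 when a library was left out. The DESeq2 Wald test was not run for the test of any difference. With 2 WT libraries, leaving out one leaves a single library, assumed to vary like the others.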
